A study of Cricetulus griseus with 40 samples.

Results

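Galectins are sugar-binding proteins that attach to galactose-bearing glycans, and S100 proteins are small calcium-binding proteins that attach to annexins, myosins and other partners. Their RNA was followed in CHO-S cells, a Chinese hamster ovary line adapted to suspension, of the kind in which therapeutic proteins are produced. The genes were taken from a list of 8 symbols: the galectins Lgals1, Lgals3 and Lgals8, the galectin-3 binding protein gene Lgals3bp, and S100a4, S100a6, S100a10 and S100a11. S100a6 had no match in the table that pairs the files' gene IDs with symbols and was not analysed here. The other 7 of the 8 symbols were matched among 26793 gene IDs. All 7 stood on a single line per file, were above 0 in all 40 libraries and passed the filter on low values that left 12259 genes for testing.

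By the labels the groups differ in the time after seeding alone, with no treatment or genetic change named for any of them. Samples came from batch cultures in shake flasks at intervals of 12 h, the first at 72 h and the last at 180 h, with 4 libraries at each of the 10 times. The medium held L-glutamine, an anti-clumping agent and antibiotics in every group, and all RNA came from 1 cell line. The series' design text gives 4 cultures, but no label ties a library to a culture, so p-values measure the spread between libraries, which may in part be technical.

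Galectins leave the cell without a signal peptide and crosslink glycoproteins at the surface; inside the cell they also gather at damaged endosomes and lysosomes. S100 proteins act mostly as dimers: S100a10 and S100a11 bind annexins, and S100a4 binds the heavy chain of non-muscle myosin. Some members of both families are also found outside cells, where they act on surface receptors or matrix.

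Values are FPKM, fragments scaled to transcript length and library size, so levels can be set side by side between genes. FPKM summed to between 463992 and 575241 per library. Absolute depth is unknown, and relative depth, read from the steps of the lowest values, ran from 0.821 to 1.24. Of 4 mesenchymal markers, 2 passed the filter (Vim and Pdgfrb), and the 4 summed to 699 to 817 FPKM at 180 h, against 496 to 560.01 FPKM at 72 h. Most of this sum was Vim, at 472 to 874 FPKM over all libraries, with Pdgfrb at 13.5 to 55.2 FPKM. Col1a1 and Col1a2 reached at most 0.0288 and 0.0409 FPKM. Epithelial markers summed to at most 0.108 FPKM, leukocyte markers to at most 0.206 FPKM with 2 of 6 listed at 0 throughout, and endothelial markers to at most 1.17 FPKM with 1 of 3 listed at 0 throughout. In such bulk RNA, fewer cells that express a gene and less RNA of it per cell cannot be told apart.

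Between 72 h and 180 h, 5 of the 7 genes rose: Lgals1, Lgals3, Lgals3bp, S100a4 and S100a10. Lgals8 and S100a11 did not pass the test, and no member fell. Among all 12259 genes tested, 15.8% were called higher and 33.5% lower at 180 h (limma on log2(FPKM + 1), two-sided, Benjamini-Hochberg adjusted p below 0.05). The median log2 change of the 7 genes was 0.61, beside -0.10 over all genes. With libraries rescaled by median ratios the all-gene median was 0.01 and the split over all genes was 2696 higher and 2991 lower, in place of 1938 higher and 4101 lower. Under that scaling the same 5 members passed, with log2 changes of 1.76 for Lgals1, 0.72 for Lgals3, 2.58 for Lgals3bp, 1.24 for S100a4 and 0.74 for S100a10.

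**Figure D1:**
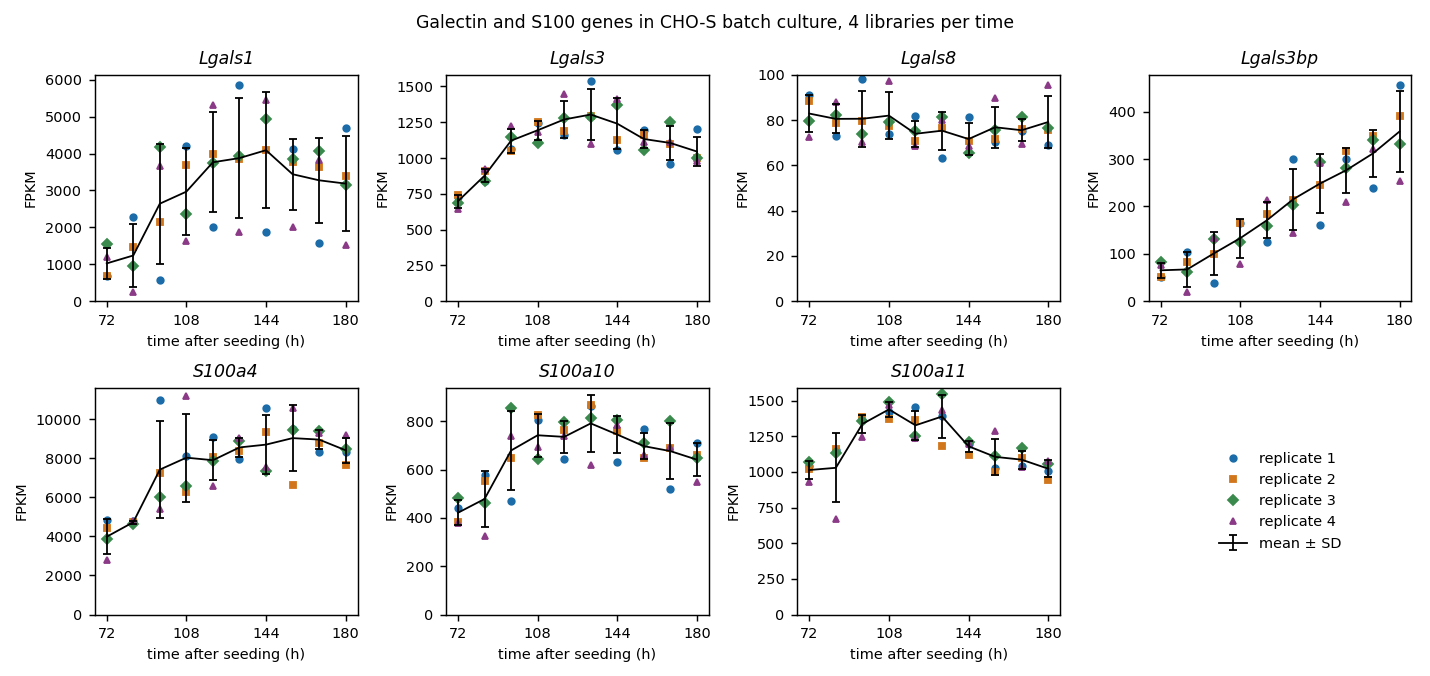
FPKM (linear axes starting at 0) against time after seeding in hours for the 7 genes. Points are single libraries, marked by replicate number, and the line with bars is the mean ± SD of the 4 libraries; Lgals3bp climbs to 358 FPKM at 180 h, while Lgals8 stays between 71.6 and 82.9 FPKM on average.

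Lgals1 encodes galectin-1, a galectin that works as a homodimer. Its 4 libraries held 4684, 3392, 3146 and 1525 FPKM at 180 h, against 681, 677, 1543 and 1200.1 FPKM at 72 h. Replicate 4 at 180 h lay just under the highest library at 72 h, so the groups overlapped by that library alone. The log2 change was 1.62 ± 0.56 (SE), adjusted p = 0.0169 by limma. This call was lost without 72 h replicate 1 (adjusted p = 0.0534), without 72 h replicate 2 (0.0537) or without 180 h replicate 1 (0.0634).

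Over the batch, Lgals1 averaged 1025 ± 424 FPKM at 72 h, 1239 ± 861 FPKM at 84 h, 2643 ± 1628 FPKM at 96 h, 2969 ± 1186 FPKM at 108 h and 3764 ± 1353 FPKM at 120 h (SD, n = 4 each). It then averaged 3878 ± 1631 FPKM at 132 h, 4091 ± 1572 FPKM at 144 h, 3441 ± 964 FPKM at 156 h, 3275 ± 1154 FPKM at 168 h and 3187 ± 1297 FPKM at 180 h. The highest mean was thus at 144 h, but every one of the 9 neighbouring pairs in the order of means overlapped. Libraries of a single time differed up to 9.24-fold, at 84 h, where the 4 values were 2294, 1457, 957 and 248 FPKM.

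Lgals3 encodes galectin-3, the galectin with a collagen-like tail that lets it form larger assemblies. The libraries held 1201, 1000.1, 1001 and 979 FPKM at 180 h, against 725, 745, 685 and 641 FPKM at 72 h. Every 180 h library lay above every 72 h library. Lgals3 rose by a log2 change of 0.58 ± 0.10 (SE), with a limma adjusted p of 1.01e-05.

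Lgals3 was among the steadiest of the 7 within a time. It averaged 699 ± 45.8 FPKM at 72 h, 877 ± 44.5 FPKM at 84 h, 1121 ± 83.5 FPKM at 96 h, 1194 ± 68.0 FPKM at 108 h and 1269 ± 130.2 FPKM at 120 h (SD, n = 4 each). It reached its highest mean, 1304 ± 180.2 FPKM, at 132 h, followed by 1239.9 ± 177 FPKM at 144 h, 1133 ± 60.0 FPKM at 156 h, 1105 ± 118 FPKM at 168 h and 1045 ± 104 FPKM at 180 h. All 4 libraries lay above all 72 h libraries at each of the 9 later times. In the order of means, 72 h and 84 h stood clear of their upper neighbours, and the other 7 of 9 neighbouring pairs overlapped.

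Lgals8 encodes galectin-8, which carries a pair of sugar-binding domains and marks damaged vesicles for autophagy. Its libraries held 69.2, 75.6, 76.3 and 95.5 FPKM at 180 h, against 90.9, 88.2, 79.7 and 72.6 FPKM at 72 h. The groups overlapped widely. The log2 change was -0.07 ± 0.11 (SE), adjusted p = 0.616 by limma, with a 95% interval from -0.29 to 0.15. With median-ratio scaling the change was 0.07, so that its sign depends on the scaling. The 10 means ran from 71.6 ± 6.94 FPKM at 144 h to 82.9 ± 8.32 FPKM at 72 h (SD, n = 4 each), and all 9 neighbouring pairs in their order overlapped. Lgals8 was the single member that did not pass the test over all 10 times (adjusted p = 0.738).

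Lgals3bp encodes a secreted glycoprotein that is bound by galectin-3 and other galectins. Its libraries held 457, 390.5, 332 and 253 FPKM at 180 h, against 50.6, 51.8, 82.3 and 76.4 FPKM at 72 h. The lowest 180 h library lay well above the highest 72 h library. The log2 change was 2.44 ± 0.37 (SE), 5.42-fold on the log2(FPKM + 1) scale, adjusted p = 1.56e-06 by limma. This was the largest change of the 7.

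Mean Lgals3bp was higher at each successive time. It was 65.3 ± 16.5 FPKM at 72 h, 67.1 ± 36.2 FPKM at 84 h, 101 ± 44.5 FPKM at 96 h, 133 ± 40.8 FPKM at 108 h and 171 ± 38.2 FPKM at 120 h (SD, n = 4 each). The later means were 215 ± 64.4 FPKM at 132 h, 248 ± 61.8 FPKM at 144 h, 277 ± 47.5 FPKM at 156 h, 312 ± 50.1 FPKM at 168 h and 358 ± 86.5 FPKM at 180 h. Each neighbouring pair of times overlapped nonetheless. By library rank within the FPKM files, Lgals3bp stood at a median of 208 at 180 h, against 1568 at 72 h.

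S100a4 encodes a small calcium sensor that binds non-muscle myosin and is abundant in fibroblasts and other motile cells. Its libraries held 8309, 7659, 8487 and 9189 FPKM at 180 h, against 4847, 4441, 3859.99 and 2787 FPKM at 72 h. The groups did not overlap. S100a4 rose by a log2 change of 1.11 ± 0.18 (SE), with a limma adjusted p of 5.31e-06. S100a4 was the most abundant of the 7 genes at both times: it made up 1.58% ± 0.14 of all FPKM at 180 h and 0.788% ± 0.166 of all FPKM at 72 h (SD, n = 4 each), with a median rank of 2 at 180 h and 2.5 at 72 h.

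Mean S100a4 stood between 7421 and 9034 FPKM from 96 h on. It averaged 3984 ± 895 FPKM at 72 h, 4728 ± 84.8 FPKM at 84 h, 7421 ± 2501 FPKM at 96 h, 8033 ± 2255 FPKM at 108 h and 7902 ± 1025 FPKM at 120 h (SD, n = 4 each). From 132 h the means were 8557 ± 489, 8701 ± 1516 FPKM at 144 h, 9034 ± 1676 FPKM at 156 h, 8959 ± 495 FPKM at 168 h and 8411 ± 629 FPKM at 180 h. The libraries of the 8 times from 96 h on all lay above every 72 h library. The highest mean was at 156 h, and from 96 h on all neighbours in the order of means overlapped.

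S100a10 encodes the S100 protein that pairs with annexin A2 at the plasma membrane and holds plasminogen and its activator there; unlike its relatives it does not bind calcium. Its libraries held 710.3, 659, 647 and 548 FPKM at 180 h, against 441, 382, 484 and 378 FPKM at 72 h. All 4 at 180 h lay above all 4 at 72 h. S100a10 rose by a log2 change of 0.61 ± 0.16 (SE), adjusted p = 0.00217 by limma.

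Mean S100a10 passed through a maximum at 132 h. It averaged 421 ± 50.9 FPKM at 72 h, 478 ± 114 FPKM at 84 h, 679 ± 162 FPKM at 96 h, 742 ± 88.0 FPKM at 108 h and 735 ± 65.1 FPKM at 120 h (SD, n = 4 each). After 791 ± 118 FPKM at 132 h it averaged 745 ± 78.2 FPKM at 144 h, 697 ± 54.8 FPKM at 156 h, 676 ± 116 FPKM at 168 h and 641 ± 68.1 FPKM at 180 h. All 9 neighbouring pairs in the order of means overlapped.

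S100a11 encodes a calcium sensor that binds annexin A1. Its libraries held 1007, 946, 1057 and 1079 FPKM at 180 h, against 1041, 1019, 1067 and 927 FPKM at 72 h. The groups lay on top of each other. The log2 change was 0.01 ± 0.11 (SE), adjusted p = 0.937 by limma, with a 95% interval from -0.22 to 0.24.

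S100a11 was higher in the middle of the batch than at its ends. It averaged 1013 ± 61.0 FPKM at 72 h, 1029 ± 242 FPKM at 84 h, 1336 ± 63.0 FPKM at 96 h, 1438 ± 53.2 FPKM at 108 h and 1327 ± 102 FPKM at 120 h (SD, n = 4 each). The later means were 1389 ± 151 FPKM at 132 h, 1179.8 ± 40.5 FPKM at 144 h, 1106 ± 128 FPKM at 156 h, 1086 ± 62.2 FPKM at 168 h and 1022 ± 59.5 FPKM at 180 h. At 5 times all libraries lay above every 72 h library. In the order of means 144 h lay clear of 120 h, and the other 8 of 9 neighbouring pairs overlapped. Over all 10 times 6 of the 7 genes passed the test, S100a11 among them (limma adjusted p = 1.49e-04), where 49.9% of all genes did. In the CriGri-PICRH-1.0 assembly, used here for names and gene order only, S100a10 and S100a11 lie next to each other with 1 placeholder gene between them.

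In the first 36 h, 108 h against 72 h, S100a4, S100a10, S100a11 and Lgals3 passed the test. Thus 4 of the 7 genes rose and none fell, where 7.46% of all genes were called higher and 11.2% lower. Lgals3 held 1241, 1251, 1104 and 1179 FPKM at 108 h, and its log2 change against 72 h was 0.77 ± 0.10 (SE), limma adjusted p = 4.92e-07. S100a4 held 8119, 6268, 6557 and 11188 FPKM at 108 h, a change of 1.00 ± 0.18, adjusted p = 1.06e-04 by limma. For both genes the 108 h libraries lay wholly above the 72 h libraries given above.

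S100a10 held 807, 825, 642 and 694 FPKM at 108 h, a log2 change against 72 h of 0.81 ± 0.16 (SE), limma adjusted p = 3.28e-04. S100a11 held 1422, 1371, 1489 and 1472 FPKM at 108 h, a change of 0.51 ± 0.11, adjusted p = 0.00133 by limma. Neither gene's 108 h libraries overlapped those of 72 h. Lgals1 held 4212, 3679, 2352 and 1632 FPKM at 108 h, a change of 1.53 ± 0.56 with an adjusted p of 0.0535 by limma. Its 108 h libraries also lay above all 72 h libraries, but the call was missed, and the 95% interval ran from 0.39 to 2.67.

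Lgals3bp held 164, 164, 126 and 78.2 FPKM at 108 h, a log2 change against 72 h of 0.99 ± 0.37 (SE), limma adjusted p = 0.0578 with a 95% interval from 0.24 to 1.75. Replicate 4 at 108 h lay within the 72 h range. Both near misses depended on single libraries and on the processing. With 1 library left out in turn, Lgals1 passed in 10 of 40 fits and Lgals3bp in 4 of 40. The lowest adjusted p-values by limma among these fits, 0.0243 for Lgals1 and 0.0166 for Lgals3bp, came without 84 h replicate 4. The counts over all genes in these fits are not given here. With 96 h replicate 1 left out as well as 84 h replicate 4, limma called 3300 of 12227 genes, in place of 2293 of 12259. With all libraries kept, Lgals1 passed with median-ratio scaling (limma adjusted p = 0.0493) or a filter of 5 FPKM (0.0480). Lgals3bp did not (0.0522 and 0.0520). Both genes passed with array weights, or with the shared axis described below as a covariate. Those 2 settings also called more of all genes. For Lgals8 the change was -0.02 ± 0.11, adjusted p = 0.932 by limma.

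In the middle 36 h, 144 h against 108 h, limma called 0 of the 7 genes, where 15.7% of all genes were called. At an unadjusted p below 0.05 by limma stood 2 of the 7, beside 3448 of all 12259 genes tested. The 2 members were Lgals3bp and S100a11. Lgals3bp held 162, 245, 293 and 292 FPKM at 144 h, a log2 change against 108 h of 0.91 ± 0.37 (SE), limma adjusted p = 0.0937. S100a11 held 1193, 1120.2, 1211 and 1195 FPKM at 144 h, a change of -0.29 ± 0.11, adjusted p = 0.0856 by limma. All 4 S100a11 libraries at 144 h lay below all 4 at 108 h. Without 84 h replicate 4, which enters the shared estimate of spread, the S100a11 adjusted p by limma was 0.00718 and that of Lgals3bp 0.0323. The count over all genes in that fit is not given here. With 96 h replicate 1 left out as well, limma called 2677 of 12227 genes, in place of 1924 of 12259.

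In the last 36 h, 180 h against 144 h, limma again called 0 of the 7 genes, where 1.39% of all genes were called. At an unadjusted p below 0.05 by limma stood 1 of the 7, beside 988 of all 12259 genes tested. The 1 member was Lgals3, with a log2 change of -0.24 ± 0.10 (SE) and a limma adjusted p of 0.403. Point estimates were below 0 for 5 of the 7 and above 0 for Lgals3bp (0.53) and Lgals8 (0.14). S100a4 stood at -0.04, with a 95% interval from -0.40 to 0.33.

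**Figure D2:**
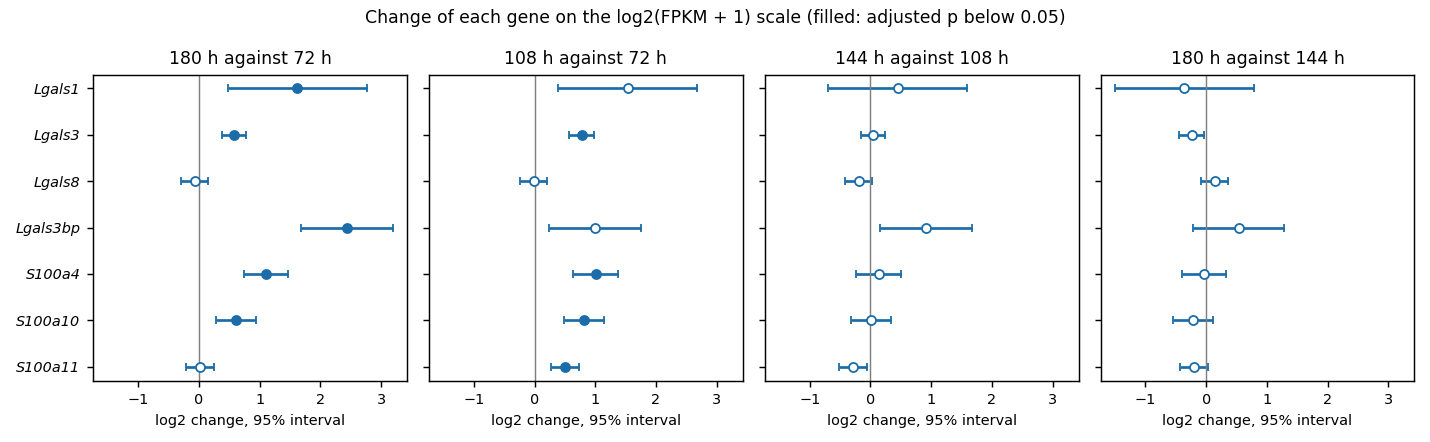
Log2 change on the log2(FPKM + 1) scale with its 95% interval for each gene, in 4 panels for 180 h against 72 h and for the 3 windows of 36 h. Filled points passed at an adjusted p below 0.05: 5 in the first panel, 4 at 108 h against 72 h, and none in the later windows.

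The change in the last window was itself tested against that in the first. It was lower for 4 of the 7 genes, where 2.06% of all genes were called lower: Lgals3 by a log2 difference of -1.01 (limma adjusted p = 2.38e-05), S100a4 by -1.04 (0.0167), S100a10 by -1.03 (0.00636) and S100a11 by -0.71 (0.00703). Lgals1 had a difference of -1.89 with an adjusted p of 0.209, and its 95% interval ran from -3.51 to -0.27. Lgals3bp (-0.46, adjusted p = 0.651 by limma) and Lgals8 (0.16, adjusted p = 0.607) did not pass either. Comparisons that share the 72 h, 108 h or 144 h libraries are not independent of each other.

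No member was called in any single step of 12 h. Over the 9 steps limma called 0 of 63 gene-by-step tests, with 5 at an unadjusted p below 0.05 and a smallest adjusted p of 0.0786. That was S100a11 at 96 h against 84 h, with a log2 change of 0.41. The same step held Lgals3 (0.35), S100a4 (0.60) and S100a10 (0.51) at an unadjusted p below 0.05, and the fifth was Lgals3 at 84 h against 72 h (0.33). Of all 12259 genes, 1890 had an unadjusted p below 0.05 by limma at 96 h against 84 h. The number was 1383 at 84 h against 72 h, and between 180 and 807 at each step after 96 h. Over all genes, 1.31% were called at 84 h against 72 h, 0.424% at 96 h against 84 h, 0.0571% at 108 h against 96 h and 0.0163% at 120 h against 108 h. The share was 0.00816% at 132 h against 120 h and at 180 h against 168 h, and 0% at the 3 steps between them. Without 96 h replicate 1, 5 members passed at 96 h against 84 h (Lgals1, Lgals3, Lgals3bp, S100a10 and S100a11), and without 84 h replicate 1 S100a10 and S100a11 did. The shares above are from the fit to all 40 libraries. Those for the fits with a library left out are not given here, so these counts have no background beside them.

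The libraries of one time differed along a shared axis, and the members took very different parts in it. The first principal component of the deviations from the time means carried 52.4% of the within-time variance over all genes, and the next 4.16%. Per SD of that axis Lgals1 changed by 0.71 on the log2 scale, more than 99.6% of all genes, and the axis carried 97.9% of its within-time variance. For Lgals3bp the slope was 0.46 and the share 94.5%. For S100a10 the slope was 0.18 and the share 74.3%. The median size of the slope over all genes was 0.12.

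Lgals3 and S100a11 hardly moved with the axis. Their slopes were 0.06 and 0.02, and the axis carried 23.5% and 2.05% of their within-time variance. S100a4 and Lgals8 ran the other way, with slopes of -0.15 (44.6% of the variance) and -0.12 (72.8%). In replicates 1 and 4 the sign of a library's score on the axis followed its time. The score of replicate 1 changed sign at each of the 9 steps of 12 h: -0.73 (72 h), 1.60 (84 h), -2.65 (96 h), 0.78 (108 h), -1.23 (120 h), 1.15 (132 h), -1.40 (144 h), 0.46 (156 h), -1.03 (168 h) and 1.02 (180 h). Replicate 4 mirrored it, with a score on the other side of 0 at all 10 times, and replicates 2 and 3 changed sign at 3 of the 9 steps each. In replicates 1 and 4, Lgals1 and Lgals3bp followed this alternation without exception. In replicate 1 both lay above the mean of the time at 84, 108, 132, 156 and 180 h and below it at the 5 times between; in replicate 4 both did the reverse. In replicates 1 and 4 the sign of the deviation of these 2 genes was thus ordered by sampling time and replicate number. Deviations from a mean of 4 libraries sum to 0, so those of different replicates are not independent. How much of the spread this alternation orders was not measured. What sets the axis was not tested.

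**Figure D3:**
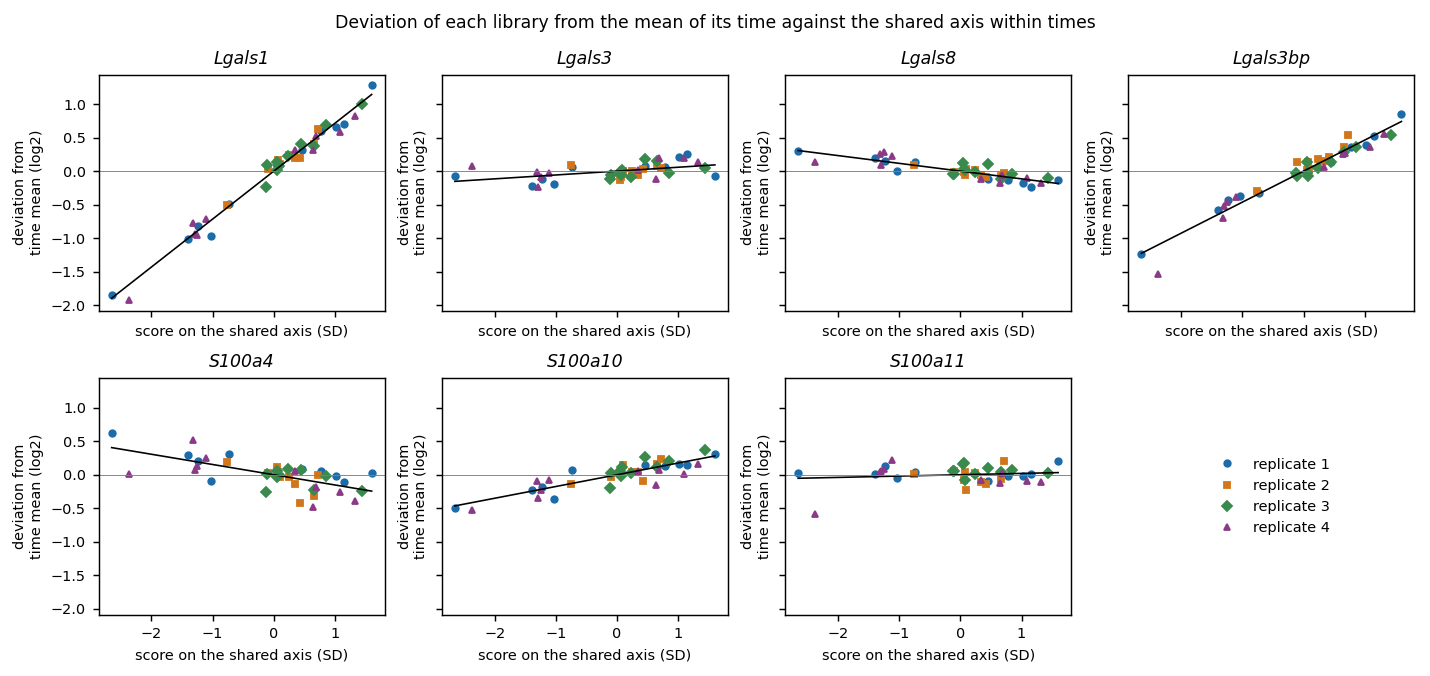
Deviation of each of the 40 libraries from the mean of its time, in log2(FPKM + 1), against the library's score on the shared within-time axis, in SD of that score; the line is the least-squares slope. Lgals1 follows the line closely (slope 0.71), S100a11 is nearly flat (0.02), and S100a4 and Lgals8 slope downwards.

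As a description, Lgals1 and S100a4 had a Pearson r of 0.96 over the 10 time means but -0.58 over the 40 within-time deviations. Lgals1 and Lgals3bp had 0.86 over the time means and 0.97 within times. Lgals3 and S100a10 stood at 0.98 over the time means and 0.50 within times. All these points share libraries and their scaling.

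Ratios within a library do not depend on how libraries were scaled. The S100a10 level divided by that of Anxa2, its annexin partner, was 0.979, 0.824, 0.752 and 0.579 at 180 h, against 0.354, 0.313, 0.364 and 0.293 at 72 h. The groups did not overlap, and the mean log2 ratio differed by 1.22 (exact two-sided permutation test, p = 0.0286, the smallest that 4 against 4 libraries allow; 0.0429 adjusted over 3 ratios). Both parts of the ratio moved: Anxa2 itself held 725, 800.1, 860 and 946 FPKM at 180 h, against 1248, 1223, 1329 and 1287 FPKM at 72 h. Its log2 change was -0.62 ± 0.13 (SE), limma adjusted p = 2.72e-04.

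The ratio of Lgals3bp to Lgals3 was 0.380, 0.390, 0.332 and 0.258 at 180 h, against 0.0698, 0.0695, 0.120 and 0.119 at 72 h. No library of 1 time reached the range of the other, and the mean log2 ratio differed by 1.88 (exact two-sided permutation test, p = 0.0286, adjusted 0.0429). The ratio of Lgals3 to Lgals1 was 0.256, 0.295, 0.318 and 0.642 at 180 h, against 1.06, 1.10, 0.444 and 0.534 at 72 h. These groups overlapped, and the log2 difference of -1.04 did not pass (exact two-sided permutation test, p = 0.0857, adjusted 0.0857).

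**Figure D4:**
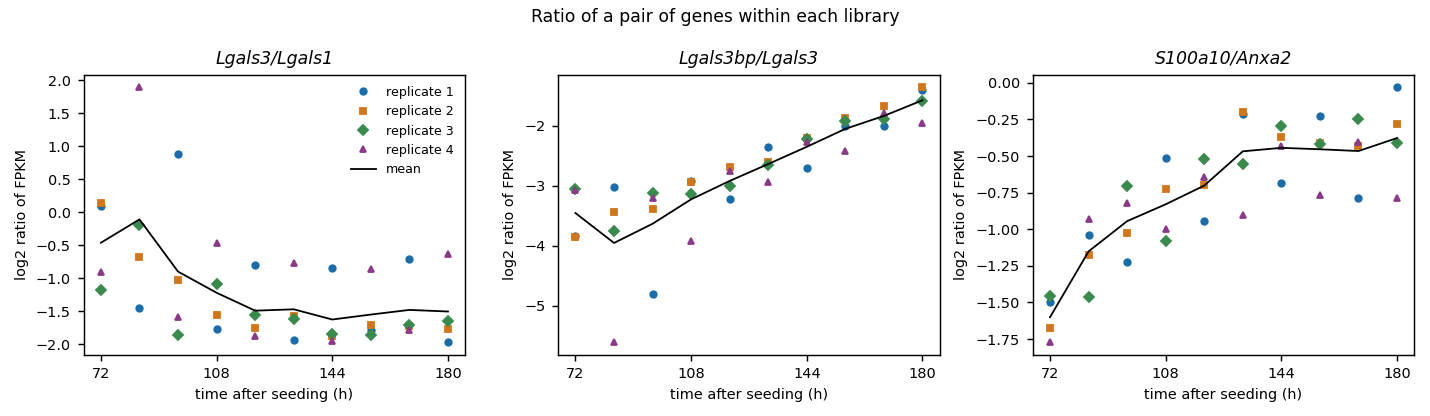
Log2 ratio of FPKM within each library for Lgals3 over Lgals1, Lgals3bp over Lgals3 and S100a10 over Anxa2, against time after seeding in hours; points are libraries by replicate number and the line is the mean of 4. The S100a10 to Anxa2 ratio averages -0.38 at 180 h and -1.60 at 72 h.

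Other genes of both families gave a mixed picture. Of 7 other galectin symbols, 2 passed the filter on low values and neither passed the test at 180 h against 72 h: Lgals2 had a log2 change of 0.32 (limma adjusted p = 0.0906) and Lgals9 one of 0.12 (0.430). Lgals12 and Grifin were listed at 0 in all libraries. Of 14 other S100 symbols, 5 passed the filter, and 4 of these rose at 180 h against 72 h: S100a16 (1.20), S100a3 (0.86), S100a1 (0.81) and S100a13 (0.56), where 15.8% of all genes were called higher. S100a5 stood at -0.31, with a limma adjusted p of 0.0537 and 251 ± 46.3 FPKM at 180 h, against 312 ± 54.2 FPKM at 72 h (SD, n = 4 each). S100a3, S100a4 and S100a5 lie close together in the CriGri-PICRH-1.0 assembly, with a placeholder gene between S100a5 and S100a4. At 108 h against 72 h all 5 of these other S100 genes rose, where 7.46% of all genes were called higher. The axis within times had a slope of 0.38 for S100a16.

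Of 12 annexins, which bind membranes when calcium is present, 8 passed the filter. Of these 1 rose, Anxa11 (0.50), and 2 fell, Anxa2 (-0.62) and Anxa6 (-0.41), at 180 h against 72 h, again beside 15.8% and 33.5% of all genes. Anxa1, the partner of S100a11, held 320, 342, 390.2 and 429.8 FPKM at 180 h, against 376, 378, 309 and 269 FPKM at 72 h. Those groups overlapped, and the log2 change of 0.16 did not pass (limma adjusted p = 0.379). The median change of the 8 was 0.07, beside -0.10 over all genes.

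Of 8 other S100 partners, 6 passed the filter, and 1 rose and 2 fell at 180 h against 72 h, shares near the 15.8% higher and 33.5% lower of all genes. Plat, the tissue plasminogen activator that S100a10 and annexin A2 bind, held 33.0, 28.8, 32.4 and 30.7 FPKM at 180 h, against 6.41, 5.94, 6.37 and 5.77 FPKM at 72 h. The groups stood far apart, with a log2 change of 2.18 ± 0.08 (SE), limma adjusted p = 1.08e-20. Cacybp, which encodes an S100A6-binding protein, fell by 0.62 on the log2 scale, and Sugt1, a co-chaperone, fell by 0.55. Ahnak, a giant scaffold bound by S100a10 with annexin A2, stood at -0.30 (limma adjusted p = 0.0616). Myh9, the myosin heavy chain that S100a4 binds, stood at 0.13 (adjusted p = 0.782 by limma) and had a slope of 0.43 on the axis within times. The median change of the 6 was -0.19.

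Of 11 galectin ligands, ligand makers and vesicle partners, all 11 passed the filter, and 7 rose and 1 fell at 180 h against 72 h, beside 15.8% higher and 33.5% lower of all genes. Their median log2 change was 0.67, beside -0.10 over all genes. Lamp1, a heavily glycosylated lysosomal membrane protein, held 1008, 926, 828 and 769.6 FPKM at 180 h, against 318, 334, 381 and 336 FPKM at 72 h. Its groups did not overlap, and its log2 change was 1.36 ± 0.14 (SE), limma adjusted p = 3.52e-10. Bsg, the surface glycoprotein basigin, rose by 1.64, with a slope of 0.40 on the axis within times. Mgat5, the enzyme that adds the N-glycan branch galectin-3 prefers, averaged 40.2 ± 0.854 FPKM at 180 h and 20.6 ± 0.817 FPKM at 72 h (SD, n = 4 each), a log2 change of 0.93 ± 0.08, adjusted p = 9.18e-12 by limma. Lamp2 (0.80), Cd44 (0.74), Fn1 (0.67) and Trim16 (0.25) also rose, and Pdcd6ip fell (-0.23).

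**Figure D5:**
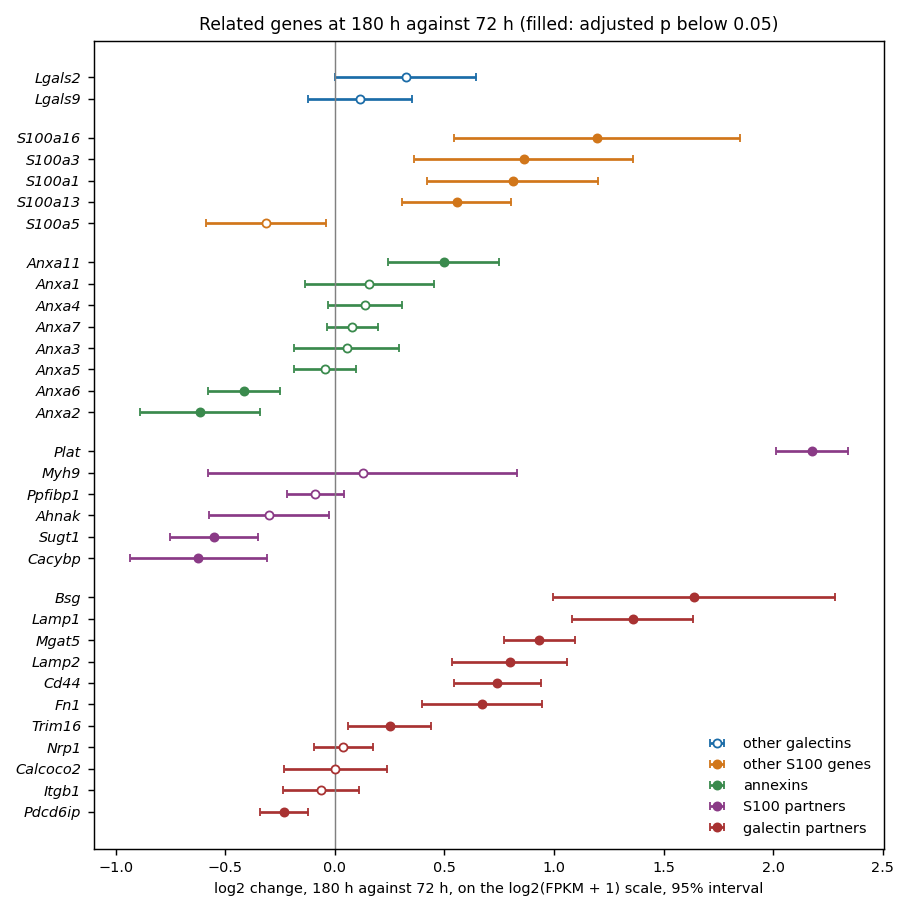
Log2 change at 180 h against 72 h on the log2(FPKM + 1) scale, with its 95% interval, for the related genes that passed the filter on low values, grouped by list. Filled points passed in either direction at a limma adjusted p below 0.05, as did 6039 of all 12259 genes. They are 4 of 5 other S100 genes, 3 of 8 annexins, 3 of 6 S100 partners and 8 of 11 galectin partners. Neither of the other galectins is filled.

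For each member that passed over all times, the 3 genes with the most similar time course were found by Pearson r over the 10 time means, among 4970 genes with a symbol that passed the same test. Such correlations describe 10 points that share libraries. The closest to Lgals1 were Tspo (0.998), Arhgap22 and Tapbpl. Tspo, an outer mitochondrial membrane protein, also had a large slope on the axis within times (0.90). Arhgap22 had a slope of 0.55 and Tapbpl one of 0.33. The closest to Lgals3bp were Ctsz (0.999), Os9 and Ctsh: Ctsz and Ctsh encode lysosomal cathepsins, and Os9 works in the disposal of misfolded proteins from the endoplasmic reticulum. Mean Ctsz was 999 FPKM at 180 h and 246 FPKM at 72 h. Slopes on the axis within times were 0.36 for Ctsz, 0.28 for Os9 and 0.17 for Ctsh. The median size over all genes was 0.12.

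The closest to Lgals3 were Gja1 (0.981), S100a10 (0.980) and Ncam1, and the closest to S100a10 were S100a13 (0.986), Ncam1 (0.986) and Lgals3. Gja1 encodes connexin 43, a gap junction protein, and Ncam1 an adhesion molecule. Those to S100a4 were Rgs17 (0.990), Upb1 and Glipr2. Those to S100a11 were Arl3 (0.946), Alg12 and Ttc39a, the lowest set of correlations among the 6 genes.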

How the data were processed

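The deposited files give FPKM for each NCBI gene ID and library. Tools named by the submitters' processing notes are Cufflinks 2.2.1, SAMtools 1.0, Trimmomatic 0.32 and FastQC. Libraries were made with a stranded mRNA kit, per the labels' protocols. The authors' aligner, genome build and strand setting were not given in the sources used here. FPKM of lines with the same ID were summed, and lines without an ID (23 per file, all 0) were left out. Symbols came from a table of assembly CriGri-PICRH-1.0: it held 23196 of the 26793 IDs, and 15217 of these had a symbol other than a placeholder. The test kept genes that reached 1 FPKM in 4 or more libraries.

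Log2(FPKM + 1), which understates changes of low genes, was fitted with limma 3.58.1 in R 4.3.3, with 1 mean per time over all 40 libraries, trended and robust variances and 30 residual degrees of freedom. Adjusted p-values are Benjamini-Hochberg values over all 12259 genes. The procedure was tested on simulated data in which every gene and library varied independently. The shared axis within times was thus not part of that test. Ratios within libraries used exact permutation tests. Of 4 planned ratios, that of S100a4 to S100a6 could not be run. All members were named. From each related list, up to 4 with the largest passing changes and 7 preset genes were named. Lgals2, Lgals9, S100a5, Trim16, Pdcd6ip, Cd44, Fn1, Lgals12 and Grifin complete a count where that rule left them out, and were named after their values were seen. The members, lists and tests were chosen with earlier results of these data known. No genome or protein sequence was used, so near-identical copies of a gene were not examined. Alternatives covered scaling, pseudocount, filter, array weights, the within-time axis as a covariate, a replicate block and leaving out libraries.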

Additional observations from a re-analysis of the deposited data

Results flagged for a closer look

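In 4 of 70 groups of 4 libraries, 1 library stood apart from the other 3 by Dixon's 95% criterion (the gap to the nearest as a share of the whole range), where chance gives about 1 in 20. Lgals1 at 156 h was 2011 FPKM in replicate 4, against 3781 to 4114 FPKM in the others. Lgals1 at 168 h was 1566 FPKM in replicate 1, against 3638 to 4079 FPKM in the others. Lgals3 at 180 h was 1201 FPKM in replicate 1, against 979 to 1001 FPKM in the others. S100a11 at 84 h was 667 FPKM in replicate 4, against 1134 to 1158 FPKM in the others. Both low Lgals1 libraries had the lowest score of their time on the axis within times, as did 84 h replicate 4. The high Lgals3 library, 180 h replicate 1, had the highest score of its time (1.02). The axis carried 97.9% of the within-time variance of Lgals1, 23.5% of that of Lgals3 and 2.05% of that of S100a11. The part of that axis in these single values was not tested.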

How the results depend on the processing

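Over the alternatives run, 6 to 7 members were called over all times, 4 to 6 at 180 h against 72 h and 4 to 6 at 108 h against 72 h. Array weights and the axis as a covariate also called more of all 12259 genes. At 180 h against 72 h they called 8408 and 8391, in place of 6039. At 108 h against 72 h they called 6792 and 5933, in place of 2293. Over all times they called 10587 and 9899, in place of 6118. At 144 h against 108 h, in place of 0, array weights called 2, the axis as a covariate 4 and the fit without the 2 libraries lowest on the axis, chosen after seeing the data, 2. Over all genes the same fits called 4113 of 12259, 5399 of 12259 and 2677 of 12227, in place of 1924. At 180 h against 144 h, in place of 0, array weights and the axis covariate each called 2. Over all genes they called 1030 and 1381, in place of 170. In the difference between the last and first windows, in place of 4, array weights called 7, the axis covariate 6 (also Lgals1 and Lgals3bp) and the fit without those 2 libraries 5 (also Lgals1). The 7 include Lgals8 as higher (0.29) and Lgals3bp at -0.92, in place of -0.46. Over the 9 steps, in place of 0, array weights called 8, the axis covariate 11, and leaving out 1 library 0 to 5. For the window difference and the steps, the counts over all genes in these fits are not given here. The axis was estimated from the same libraries, and its scores were then treated as known. Lgals8 passed at 180 h against 72 h with array weights (-0.18, adjusted p = 0.0279 by limma). Lgals1 at 180 h against 72 h had an adjusted p by limma from 0.00686 to 0.0634 with 1 library left out.

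With a replicate block, no call of a member changed at 180 h against 72 h or in the 3 windows (Lgals1 at 180 h against 72 h had a limma adjusted p of 0.0174). Same-numbered libraries did not deviate together throughout: correlations of their deviations ran from -0.779 to 0.769, over 0.1 in 60 of 180 pairs. The median was 0.304 for times an even number of 12 h steps apart (80 pairs) and -0.259 for an odd number (100 pairs). For replicates 1 and 4 all even pairs were above 0 and all odd pairs below. An additive block does not model this change of sign. The limma p-values treat libraries as independent, and the effect of this ordering on them was not tested. Paired by number, the Lgals3bp to Lgals3 ratio (1.88) and the S100a10 to Anxa2 ratio (1.22) had an adjusted exact permutation p of 0.188, as 4 pairs cannot go below 0.125. With 1 library left out the differences were 1.75 to 2.01 and 1.11 to 1.36. The two-sided p used, 2 times the smaller tail, cannot go below 0.0571 with 3 against 4 libraries. Absolute depth is unknown, which limits what can be said of low values.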
